A study of Homo sapiens with 28 samples.

Results

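The response of H1299, a non-small cell lung cancer line, was examined at 0.3 µM azacitidine, the lowest dose of the study. The comparison set the 2 arrays labelled H1299 with azacitidine at 0.3 µM against the 2 arrays labelled H1299 vehicle, 4 of 28 arrays in all. Treated cells had 0.3 µM azacitidine for 48 h, with fresh drug added every 24 h. Vehicle cells had dimethyl sulfoxide, for which the labels state no time. The other arrays were H1299 and A549, also a non-small cell lung cancer line, with azacitidine or decitabine over a dose range or with vehicle. Of these, 4 treated groups of 2 arrays were set beside the response: H1299 with 1 and with 3 µM azacitidine, H1299 with 0.3 µM decitabine, and A549 with 0.3 µM azacitidine, the last with its own 2 vehicle arrays. Nothing in the labels says that the replicates came from separate cultures, so each p measures the spread between these samples, which may be technical.

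Azacitidine is a ribonucleoside analog of cytidine and decitabine is its deoxyribonucleoside form. Azacitidine enters mainly RNA, and a part of it is reduced by ribonucleotide reductase to the deoxy form that is built into DNA. In DNA both analogs trap DNA methyltransferases, so that methylation is lost as cells divide. Genes of the germline that DNA methylation silences in somatic cells are among the known targets.

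Each value is the signal of a probe set, a group of short probes for a transcript on an Affymetrix oligonucleotide array. Differences are given as log2(signal + 32) of azacitidine minus vehicle, so the difference of a dim gene is drawn toward 0. A gene passed where the Benjamini-Hochberg adjusted p of the limma fit was below 0.05. The arrays were alike in level: their 25th percentiles lay between 18.1 and 20.6 and their medians between 92.7 and 102, and the replicates correlated at 0.992 in both groups. Mesenchymal markers were present in the azacitidine and the vehicle cells: vimentin at mean signals of 13220 and 12419, ZEB1 at 1009 and 1103, and N-cadherin at 471 and 617. A549 vehicle cells had them too, at 10172, 820 and 1608 in that order, so these markers do not tell the lines apart. Of 16 markers of the A549 line, 0 in azacitidine and 2 in vehicle cells had a mean signal above 100, against 14 in A549 vehicle cells, and their summed signal was 774 and 754 in the azacitidine arrays and 957 and 834 in the vehicle arrays. Of 12 measured leukocyte markers 1 was above 100 in each group. The log2 ratio of the 3′ to the 5′ control probe sets of beta-actin was 2.39 and 2.42 in the azacitidine arrays and 2.20 and 2.60 in the vehicle arrays.

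At 0.3 µM, azacitidine changed a small share of the genes. Of 8024 genes tested, 455 passed (5.67%), 197 of them higher (2.46%) and 258 lower (3.22%) than vehicle. Both azacitidine arrays lay beyond both vehicle arrays for all 455. The test favours genes whose arrays are apart in this way, so this adds no support to the calls. Most differences were small: the median was 0.45 among the genes that rose and -0.50 among those that fell, 15 rose by more than 1 and 14 fell by more than 1. The median over all genes tested was -0.01. The balance of directions depended on scaling, since median centring gave 255 higher and 181 lower and quantile normalization 234 higher and 203 lower. The count depended on every array: it was 169 without azacitidine replicate 1, 207 without azacitidine replicate 2, 149 without vehicle replicate 1 and 172 without vehicle replicate 2. Of the 455 genes, 67 passed in each of these 4 fits, 26 higher and 41 lower, and all 455 kept their direction.

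**Figure D1:**
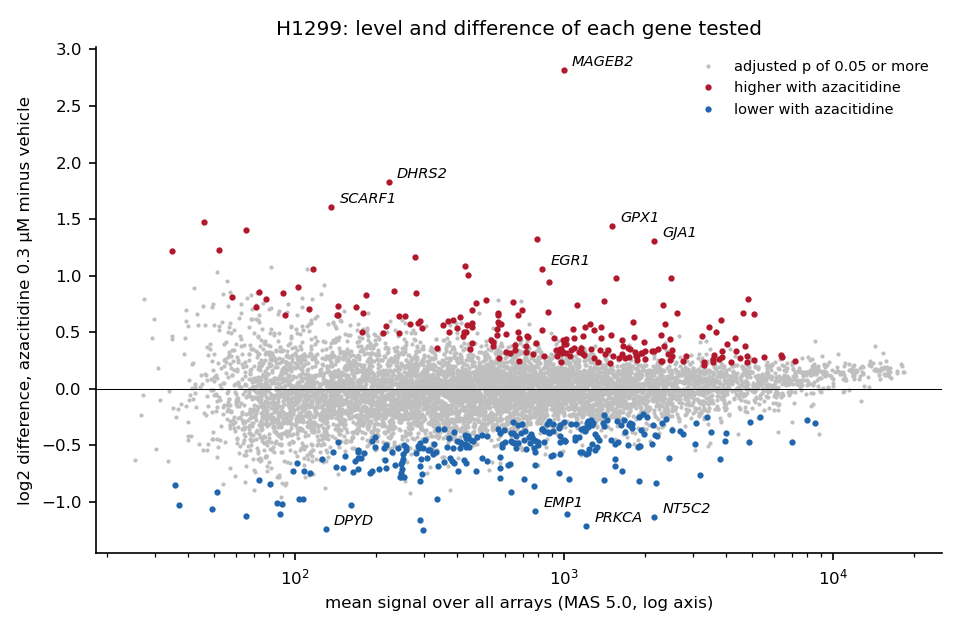
Mean signal over all 28 arrays (x, log axis) against the log2 difference of azacitidine 0.3 µM minus vehicle in H1299 (y) for the 8024 genes tested, with genes past the limma test in red (197 higher) and blue (258 lower). MAGEB2 stands alone at the top at 2.82, and the largest falls end at -1.25.

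The largest rise was in a cancer-testis gene. MAGEB2, an X-linked member of the MAGE family that is normally made in germ cells, had signals of 388 and 355 with azacitidine, against 38.7 and 14.2 with vehicle. Both azacitidine arrays lay far above both vehicle arrays, and the difference was 2.82 (95% interval 2.47 to 3.17, limma adjusted p = 1.5e-09). DHRS2, a short-chain dehydrogenase/reductase, had 228 and 221 with azacitidine, against 63.6 and 22.4 with vehicle, a rise of 1.83 (1.44 to 2.21, limma adjusted p = 3.83e-06). The other kept probe set of DHRS2 differed by 0.81. For SCARF1, a scavenger receptor, the signals were 269 and 456 with azacitidine, against 102 and 86.5 with vehicle, and the rise was 1.61, with the azacitidine arrays well apart from each other but both above vehicle.

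Several other genes that rose were near the floor of the array in vehicle cells. GPX1, the cytosolic glutathione peroxidase that reduces hydrogen peroxide, had 89.8 and 61.2 with azacitidine, against 2.09 and 13.5 with vehicle (1.44, 1.12 to 1.75, limma adjusted p = 5.24e-06). LXN, latexin, an inhibitor of carboxypeptidases, had 63.0 and 60.8 with azacitidine, against 3.43 and 7.60 with vehicle, and rose by 1.33. The azacitidine arrays of both genes were above every vehicle array, at signals that were still low. The size of such differences rests on the pseudocount: with a smaller one of 1 and with one 4 times as large as 32, the difference was 3.49 and 0.58 for GPX1, 3.35 and 0.51 for LXN and 3.92 and 1.70 for MAGEB2. Over these pseudocounts 12 of the 14 largest rises and 7 of the 14 largest falls moved by more than 1.5 times, and all 14 rises and 11 of the falls passed with both. NES, the intermediate filament nestin, had 73.6 and 59.1 with azacitidine, against 6.35 and 13.5 with vehicle (1.23). ANPEP, aminopeptidase N, had 53.5 and 61.6, against 17.4 and 5.33 (1.06), and PTGER1, a receptor for prostaglandin E2, had 114 and 76.9, against 22.6 and 5.56 (1.48). These 3 calls were lost when 1 array was left out: NES without azacitidine replicate 1 or vehicle replicate 1, ANPEP without vehicle replicate 2, and PTGER1 without azacitidine replicate 1 or vehicle replicate 2.

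Genes of cell contact and matrix were also among the largest rises. GJA1, connexin 43 of gap junctions, had 202 and 217 with azacitidine, against 71.5 and 60.7 with vehicle, and rose by 1.30 (1.07 to 1.54, limma adjusted p = 3.7e-07). SPARC, a secreted protein that binds collagen, had 126 and 71.6 with azacitidine, against 26.1 and 30.5 with vehicle (1.09). The other kept probe set of SPARC differed by 0.30 only. SERPINH1, the collagen chaperone of the endoplasmic reticulum, had 234 and 110.4, against 45.8 and 64.3 (1.17). Within each of SPARC and SERPINH1 the azacitidine arrays were further apart than those of GJA1, and both calls were lost without azacitidine replicate 1, that of SERPINH1 also without vehicle replicate 1. EGR1, an immediate early transcription factor, had 785 and 755 with azacitidine, against 365 and 341 with vehicle (1.06). ZNF280B, a zinc finger protein, and MCF2L, a guanine nucleotide exchange factor, passed at 1.22 and 1.40. The call of ZNF280B was lost without any 1 of 3 of the 4 arrays, and that of MCF2L without any 1 of the 4. BEX4, a brain-expressed X-linked gene that was picked out after its values were seen as the 1 other rise above 1, had 504 and 493 with azacitidine, against 249 and 216 with vehicle (1.01).

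**Figure D2:**
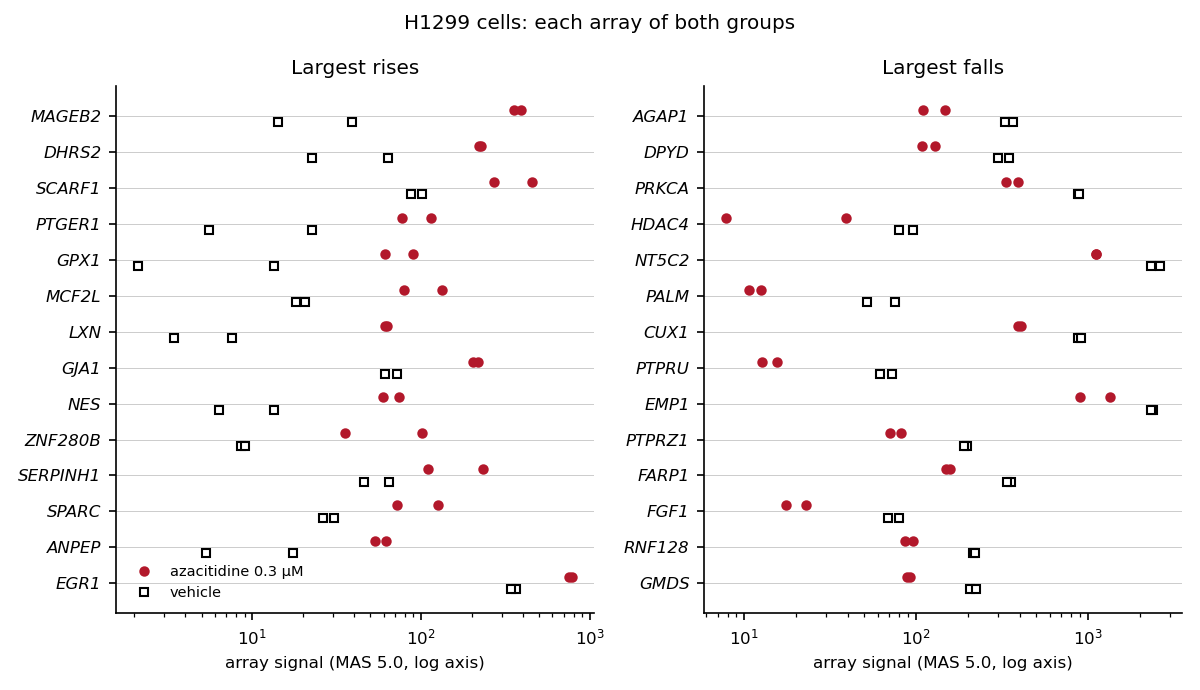
Signal of each array (x, log axis) for the 14 genes with the largest rises (left) and the 14 with the largest falls (right) in H1299, azacitidine 0.3 µM as filled circles above and vehicle as open squares below, 2 arrays each. The genes were picked on the condition that no azacitidine array lies within the range of the vehicle arrays. Many of the rises start below a signal of 30 in vehicle.

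Most of the largest falls came from genes with clear signal in vehicle cells. PRKCA, the classical protein kinase C alpha, had 389.5 and 335 with azacitidine, against 872 and 889 with vehicle, a fall with the difference -1.21 (-1.41 to -1.02, limma adjusted p = 9.55e-08). AGAP1, a GTPase-activating protein for Arf proteins, had 147 and 110.3, against 329 and 368 (-1.25, -1.50 to -1.004, limma adjusted p = 1.78e-06). CUX1, a homeobox transcription factor, had 406 and 391, against 878 and 913 (-1.11). In each of these 3 genes the groups were far apart compared with the spread between their replicates.

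Enzymes of nucleotide metabolism and of chromatin were among these falls. DPYD, dihydropyrimidine dehydrogenase, which starts the breakdown of uracil and thymine, had 128.26 and 109 with azacitidine, against 348 and 298 with vehicle (-1.24). NT5C2, a cytosolic 5′-nucleotidase, had 1115 and 1119, against 2638 and 2342 (-1.13). HDAC4, a class IIa histone deacetylase, had 39.0 and 7.82, against 95.4 and 79.2 (-1.16), with the azacitidine arrays unlike each other but both below vehicle. EMP1, a membrane protein of epithelial cells, had 904 and 1349.9 with azacitidine, against 2403 and 2336 with vehicle (-1.08). GMDS, which makes the precursor of GDP-fucose, had 92.1 and 88.5, against 207 and 222 (-1.01), and FARP1, also a guanine nucleotide exchange factor, had 149 and 158, against 357 and 337 (-1.03). The groups of these genes did not overlap, which was a condition of the choice. Replicates were close except for the azacitidine arrays of HDAC4 and EMP1.

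The remaining large falls rested on dimmer signals or on single settings. PTPRZ1, a receptor tyrosine phosphatase (-1.06), and RNF128, a ubiquitin ligase (-1.02), lost their calls with a pseudocount of 1 in place of 32. PALM, paralemmin (-1.12), PTPRU, also a receptor tyrosine phosphatase (-1.11), and FGF1, a fibroblast growth factor (-1.03), each lost the call without any 1 of the 4 arrays. Of these, FGF1 had 22.9 and 17.5 with azacitidine, against 69.0 and 79.5 with vehicle.

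Beside the largest changes, the 67 genes that passed without each array in turn held others that were picked out after their values were seen. RHOB, a small GTPase induced by stress, had 1053 and 1129 with azacitidine, against 568 and 507 with vehicle (0.98). EGFR, the epidermal growth factor receptor, had 279 and 326 with azacitidine, against 514 and 542 with vehicle (-0.75). In both genes the 4 arrays fell into 2 groups with no overlap, as for all 455 genes that passed.

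The genes that fell were long. With the genomic span of each gene taken from RefSeq (GRCh38.p14), the median span was 121 kb for the 258 genes that fell, against 17.4 kb for the 197 that rose and 31.3 kb for all tested. The genes were put in 5 bins of equal number by span. In the longest bin (92 to 1553 kb), 9.60% passed as lower and 0.436% as higher, and the median difference of the bin was -0.15. In the shortest bin (up to 10.2 kb), 1.31% passed as lower and 3.99% as higher, and the median was 0.05. Spans over 200 kb belonged to 76 of the 258 genes that fell (29.5%), to 1 of the 197 that rose (0.508%) and to 538 of those tested (6.71%). All of this is a description across genes, which are not independent replicates, and carries no test.

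The 14 largest falls show it: 11 of them span more than 100 kb, among them DPYD with 843 kb, AGAP1 with 638 kb, GMDS with 622 kb, PRKCA with 508 kb and CUX1 with 468 kb. Of the 14 largest rises 1 spans more than 100 kb, MCF2L with 205 kb, and GPX1 spans 1.18 kb. Among the 67 genes that passed without each array in turn, the median span was 161 kb for those that fell and 8.55 kb for those that rose. The longest bin was dimmer than the shortest, with median signals of 392 and 520. Among genes of above-median signal the median spans were 108 kb for falls and 17.3 kb for rises, and among the dimmer ones 159 kb for falls and 17.4 kb for rises. The part of RNA quality in this pattern was not tested.

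The same ordering was seen in A549, whose arrays are none of these 4. There 102 genes fell with 0.3 µM azacitidine and their median span was 86.4 kb, against 25.3 kb for the 94 that rose, and the longest bin had a median difference of -0.09. With 0.3 µM decitabine in H1299, compared with the same vehicle arrays, the 714 genes that fell had a median span of 60.4 kb, against 19.3 kb for the 714 that rose. At 3 µM azacitidine, again against the same vehicle arrays, the order was turned: 27.0 kb for the 1733 genes that fell and 36.2 kb for the 2592 that rose. In the direct comparison of 3 µM with 0.3 µM azacitidine, the median difference was 0.27 in the longest bin and -0.09 in the shortest. In that of azacitidine with decitabine at 0.3 µM, the bins had medians between -0.007 and 0.010. In H1299 the log2 3′ to 5′ ratio of beta-actin was 1.88 and 2.11 with decitabine 0.3 µM. It was 2.65 and 2.63 with azacitidine 3 µM and 2.20 and 2.60 with vehicle. That of GAPDH was 0.28 and 0.24 with azacitidine 3 µM, against -0.04 and -0.08 with vehicle. The part of RNA quality in these orders was not tested.

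**Figure D3:**
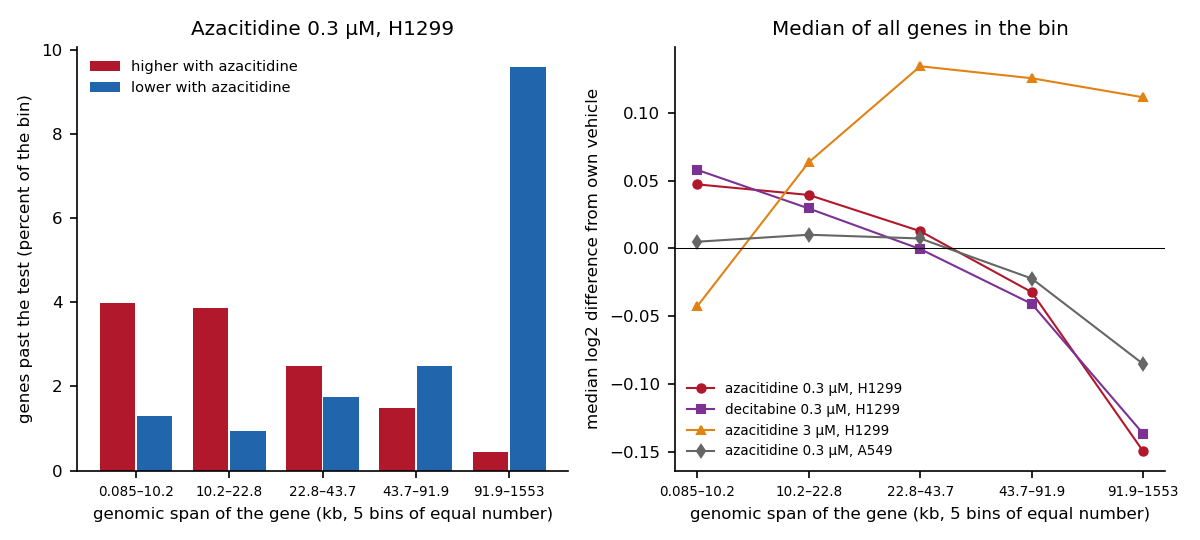
Left, the percent of genes past the test (y) in each of 5 bins of genomic span (x, kb) for azacitidine 0.3 µM minus vehicle in H1299, higher in red and lower in blue. Right, the median log2 difference from the line's own vehicle of all genes in each bin, for 4 treatments. The share of lower genes is 9.60% in the longest bin and 1.31% in the shortest, and the line for azacitidine 3 µM is at -0.04 in the shortest bin and 0.11 in the longest.

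Median counts of CG before the gene start were close in both directions, and no test was made. In the 250 bases before the start of the gene (RefSeq, GRCh38.p14), the dinucleotide CG, in which DNA methylation occurs and which reads the same on both strands, was counted for the 6662 genes tested that had an entry. The median count was 21 for the 170 genes that rose, 23 for the 221 that fell and 21 for all, and 99.3% of all held at least 1. Shown here are 4 of these windows on the strand of the gene, for the largest rise, for 2 rises from near the floor and for the fall with the lowest adjusted p, with each CG in capitals. They hold 15, 20, 7 and 47 of them, in the order MAGEB2 (chrX:30215313-30215562, plus strand), GPX1 (chr3:49358354-49358603, minus strand), LXN (chr3:158672649-158672898, minus strand) and PRKCA (chr17:66302363-66302612, plus strand).
MAGEB2: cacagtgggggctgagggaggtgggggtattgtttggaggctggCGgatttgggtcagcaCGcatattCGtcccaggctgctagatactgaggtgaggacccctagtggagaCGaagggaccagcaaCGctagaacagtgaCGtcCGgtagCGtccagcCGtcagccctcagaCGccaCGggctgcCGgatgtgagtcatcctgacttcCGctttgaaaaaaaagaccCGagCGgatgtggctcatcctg
GPX1: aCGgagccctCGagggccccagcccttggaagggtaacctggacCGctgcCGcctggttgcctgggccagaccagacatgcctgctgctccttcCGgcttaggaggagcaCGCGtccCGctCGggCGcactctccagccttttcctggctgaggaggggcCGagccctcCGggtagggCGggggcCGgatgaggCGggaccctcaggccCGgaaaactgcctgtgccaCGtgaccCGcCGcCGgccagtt
LXN: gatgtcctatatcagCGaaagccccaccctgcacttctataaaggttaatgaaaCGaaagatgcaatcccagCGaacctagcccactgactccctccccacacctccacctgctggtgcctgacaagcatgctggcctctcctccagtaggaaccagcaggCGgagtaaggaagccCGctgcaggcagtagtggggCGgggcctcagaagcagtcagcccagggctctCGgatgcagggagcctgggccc
PRKCA: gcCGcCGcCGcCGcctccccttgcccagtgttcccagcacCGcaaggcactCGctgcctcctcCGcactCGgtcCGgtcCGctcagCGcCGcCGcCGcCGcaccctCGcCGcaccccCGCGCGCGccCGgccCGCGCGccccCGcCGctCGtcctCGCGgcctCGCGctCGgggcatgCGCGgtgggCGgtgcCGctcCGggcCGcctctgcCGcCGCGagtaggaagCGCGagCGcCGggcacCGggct
As many CG as MAGEB2 or more stood in 74.9% of the tested genes with an entry, and as many as LXN or more in 90.5%, so the windows of these genes that rose were not rich in CG. PRKCA, which fell, had a count reached by 0.51%. Methylation was not measured on these arrays.

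Some of the enzymes that the drug acts on or is handled by passed, and most did not. DNMT3B, a de novo DNA methyltransferase, had 415 and 459 with azacitidine, against 259 and 253 with vehicle, and rose by 0.70 (0.43 to 0.97, limma adjusted p = 0.00272). DNMT1, the maintenance methyltransferase, had 2813 and 2799, against 2577 and 2792, a difference of 0.06 with an interval of -0.08 to 0.21 that did not pass. DNMT3A, the other de novo enzyme, had 258 and 269, against 190.3 and 213 (0.34, limma adjusted p = 0.186), and did not pass although both azacitidine arrays were the higher ones. HELLS, a chromatin remodeller needed for DNA methylation, fell (-0.61), and its call was lost in 9 of 14 alternatives, among them those without any 1 of the 4 arrays. Of 10 genes of the DNA methylation machinery, DNMT3B and HELLS were the only ones to pass, beside 5.67% of all genes. The median was -0.01.

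Of 23 genes of cytidine analog uptake and metabolism, UPP1 and RRM2 rose and NT5C2 fell, and the median was 0.10. Among all genes 2.46% were higher and 3.22% lower. An unadjusted p under 0.05 was found for 9 of the 23, beside 20.2% of all genes. UPP1, uridine phosphorylase, had 363 and 383 with azacitidine, against 209.7 and 210.3 with vehicle (0.74). RRM2, the small subunit of ribonucleotide reductase, had 7215 and 7199, against 5881 and 5928 (0.29), a call lost without any 1 of the 4 arrays. DCK, the kinase that activates decitabine, differed by 0.13 (-0.13 to 0.38), RRM1, the large reductase subunit, by -0.03 (-0.22 to 0.16), and neither passed. CDA, the deaminase that inactivates both drugs, had signals of 1.49 and 5.87 with azacitidine, against 10.1 and 2.26 with vehicle, which is near the floor. UCK2, the kinase that activates azacitidine, was not analysed here.

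Of 19 cancer-testis and germline genes tested, which are normally silent outside the germline, 2 rose and 0 fell, beside 2.46% higher among all genes, with a median of 0.26. An unadjusted p under 0.05 was found for 6 of the 19, and for 20.2% of all genes. The 19 were kept for being above the array median on at least 2 arrays of any groups. Members near the floor in vehicle had little room to fall, so the filter is part of this one-sided count and of the median. The genes that rose were MAGEB2 and PRAME, a melanoma antigen already high in these cells, with 2292 and 2139, against 1688 and 1758 (0.36). DAZL, an RNA-binding protein of germ cells, had 17.7 and 12.1 with azacitidine, against 3.20 and 3.85 with vehicle. Both azacitidine arrays of DAZL were the higher ones, at signals near the floor, and its difference of 0.40 did not pass (limma adjusted p = 0.163). With a pseudocount of 1 the difference was 1.80 and passed (limma adjusted p = 0.0137), and over its 15 alternatives the adjusted p lay between 0.0137 and 0.499. Of 28 genes reported methylated in lung cancer, SPARC and TFPI2, a protease inhibitor, rose and DKK3, a secreted member of the Dickkopf family, fell. TFPI2 had 2631 and 2729, against 1789.7 and 1979.7 (0.50), and DKK3 had 936 and 950.5, against 1339.6 and 1329 (-0.49). The other kept probe set of TFPI2 differed by 0.25. The TFPI2 call was lost without azacitidine replicate 2 or vehicle replicate 1, and that of DKK3 without vehicle replicate 1.

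Genes downstream of the kinase ERK and of the transcription factor AP-1 changed in both directions: of 28, 7 fell and 3 rose, with a median of -0.17, beside 3.22% lower and 2.46% higher among all genes. Beside EMP1, PLAU, the urokinase that activates plasminogen, had 1613 and 1488 with azacitidine, against 2838 and 2638 with vehicle (-0.81, -1.003 to -0.61, limma adjusted p = 1.81e-05). FOSL1, the AP-1 subunit FRA1, had 2636 and 3142, against 4532 and 5031 (-0.72), a call lost without azacitidine replicate 1. The other falls were in the ERK phosphatase DUSP5 (-0.51), the AP-1 subunit JUN (-0.43), the transcription factor MYC (-0.40) and SPRY2, an inhibitor of receptor signalling (-0.37). The genes that rose were EGR1, the ERK phosphatase DUSP6, with 3445 and 3359, against 2732 and 2485 (0.38), and the AP-1 subunit JUND, with 2612 and 2372, against 1928 and 1994 (0.34). The ERK phosphatases DUSP6 and DUSP5 thus changed in opposite directions, and so did the AP-1 subunits JUND and JUN. Without each array in turn, 4 of the 7 falls and 1 of the 3 rises passed throughout.

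Of 22 genes in a list of epithelial junction and identity, 4 rose and 0 fell, beside 2.46% higher and 3.22% lower among all genes, with a median of 0.10. The list does not hold EMP1, which fell, nor KLF4, a transcription factor of epithelial differentiation, which fell as well (-0.80, limma adjusted p = 0.00532). KRT8, a keratin of simple epithelia, had 560.4 and 619.9 with azacitidine, against 406 and 349 with vehicle (0.60), and SFN, the epithelial 14-3-3 sigma, had 939.9 and 1021, against 658 and 550.0 (0.67). The other 2 kept probe sets of SFN differed by 1.05 and 1.65. KRT7, also a keratin of simple epithelia, had 35.9 and 21.1, against 6.70 and 5.23 (0.66), a call lost without any 1 of 3 of the 4 arrays, and DSP, desmoplakin, rose by 0.30. In A549 vehicle cells KRT7 had 9512 and 10371, so it was kept in the test through other groups. Such members had little room to fall in H1299, so the filter is part of the one-sided count of this list. Of 31 mesenchymal and matrix genes 4 rose and 2 fell, beside 2.46% higher and 3.22% lower among all genes. The median of the 31 was -0.16, so the list as a whole leaned lower although more of its calls were rises. The rises were SPARC, S100A4, a calcium-binding protein (163 and 143, against 66.0 and 83.8; 0.80), CCN2, a matricellular growth factor (2259 and 2201, against 1688 and 1591; 0.44), and TIMP1, an inhibitor of metalloproteinases (0.37). N-cadherin, CDH2, had 501 and 441, against 612 and 623 (-0.37), and LOXL2, a collagen-modifying oxidase, 629 and 596, against 873 and 746 (-0.38). All 6 of these mesenchymal calls were lost without at least 1 array, and with median centring neither CDH2 nor LOXL2 passed.

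Stress genes changed in both directions and did not move as a group. Of 41 genes of the integrated stress response, which acts through phosphorylation of eIF2, 4 rose and 4 fell, with a median of 0.04. Among all genes 2.46% were higher and 3.22% lower. An unadjusted p under 0.05 was found for 14 of the 41, beside 20.2% of all genes. ATF5, a transcription factor of that response, had 749 and 677 with azacitidine, against 441 and 373 with vehicle (0.77), and the asparagine synthetase ASNS (0.27), the mitochondrial folate enzyme MTHFD2 (0.28) and the pseudokinase TRIB3 (0.29) rose less. DDIT4, an inhibitor of mTORC1 signalling, had 619 and 599, against 1065 and 839.7 (-0.61), and NIBAN1, a stress-induced regulator of translation, 605 and 737, against 1019.7 and 1019 (-0.59). The receptor VLDLR (-0.45) and the transcription factor CEBPG (-0.35) also fell. Of the 8 calls, those of ATF5 and DDIT4 passed without each array in turn. DDIT3 and ATF3, transcription factors induced by stress, differed by 0.14 (-0.18 to 0.46) and -0.11 (-0.42 to 0.20) and did not pass.

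Of 16 heat shock and cytosolic chaperone genes 4 rose and 0 fell, beside 2.46% higher and 3.22% lower among all genes, with a median of 0.17. HSPB1, the small heat shock protein HSP27, had 404 and 341 with azacitidine, against 190.4 and 230.3 with vehicle (0.74). The HSP90 cochaperone STIP1 (0.59) and the HSP40 proteins DNAJA1 (0.28) and DNAJB1 (0.23) rose as well. The other kept probe set of STIP1 differed by 0.17. Only the HSPB1 call passed without each array in turn. CDKN1A, the cyclin-dependent kinase inhibitor p21, had 666 and 638, against 451 and 422 (0.55, 0.35 to 0.74). The death receptor TNFRSF10B rose by 0.26, and GADD45A, a stress-induced growth arrest gene (-0.47), and the kinase PLK2 (-0.27) fell. The calls of TNFRSF10B, GADD45A and PLK2 were each lost without at least 3 of the 4 arrays.

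Of 64 G2/M and mitosis genes 6 rose and 0 fell, beside 2.46% higher among all genes, with a median of 0.10, against 0.11 for the 21 housekeeping genes. An unadjusted p under 0.05 was found for 13 of the 64, close to the 20.2% of all genes. The 6 that rose were the condensin subunit NCAPG (4170.0 and 4091, against 3221 and 3309; 0.34), the kinesin KIF2C (0.34), the mitotic kinases NEK2 (0.31) and AURKA (0.25), the kinetochore protein ZWINT (0.24) and cyclin B1, CCNB1 (6427 and 6866, against 5517 and 5735; 0.24). None of these 6 calls passed without each array in turn, and quantile normalization left 4. Of 55 G1/S and replication genes RRM2 rose and GINS1, a subunit of the replicative helicase, fell, with 1258 and 1286, against 1867 and 1781 (-0.51).

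The other lists had 0 to 2 genes past the test, beside 5.67% of all genes, so that such counts say little of a list. Of 21 chemokines and inflammatory cytokines CXCL2 (0.49) and TNFAIP2 (0.39) rose, and of 25 glycolysis and hypoxia genes ENO2 (0.60) and P4HA2 (0.49). The interferon regulator IRF7 (0.65) was 1 of 28 interferon-stimulated genes, HLA-E (0.43) 1 of 17 antigen presentation genes, H2AC6 (0.44) 1 of 10 replication-dependent histones and CHMP2A (0.34) 1 of 21 housekeeping genes to pass, all of them higher. Each of these 8 calls was lost without at least 3 of the 4 arrays. In the limma fit, 0 genes passed of 22 chaperones of the endoplasmic reticulum, 19 cholesterol synthesis, 40 ribosome biogenesis, 46 oxidative phosphorylation, 25 NRF2 target, 6 metallothionein and 11 imprinted genes. At an unadjusted p under 0.05 these lists held 3, 5, 9, 6, 5, 1 and 3 genes, in that order, beside 20.2% of all genes. Median centring called 1 ribosome biogenesis gene and quantile normalization 1 NRF2 target.

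At 3 µM the same drug changed far more genes. The direct comparison of the 3 µM arrays with the 0.3 µM arrays, which are also those of the comparison with vehicle, called 4454 genes (55.5%), 2708 higher (33.7%) and 1746 lower (21.8%). With median centring the split was 1720 higher and 2660 lower, and the median over all genes was 0.12 as scaled by the authors, 0.03 after quantile normalization and -0.10 after median centring. The differences named here are larger than that shift. Of the 14 largest rises at 0.3 µM, 4 were higher still at 3 µM and 8 were lower than at 0.3 µM. Of the 14 largest falls, 6 were higher at 3 µM than at 0.3 µM and 1 was lower. These genes were picked by their 0.3 µM arrays, which are part of this comparison too. The choice therefore favours lower values at 3 µM among the rises and higher ones among the falls.

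Some genes that rose at 0.3 µM did not pass as higher than vehicle at 3 µM. GPX1 had 128.04 and 106 at 1 µM and 11.97 and 3.08 at 3 µM, so that the 3 µM arrays lay within the range of vehicle and below both 0.3 µM arrays (-1.44 for 3 µM minus 0.3 µM, limma adjusted p = 7.24e-08). LXN had 119 and 157 at 1 µM and 25.2 and 2.13 at 3 µM (-1.09). GJA1 had 156 and 139 at 1 µM and 27.1 and 24.5 at 3 µM, below vehicle at the high dose (-2.07 for 3 µM minus 0.3 µM). SCARF1, with 107 and 103 at 3 µM, was also lower there than at 0.3 µM (-1.48). MAGEB2 went on rising to 2102 and 1944 at 1 µM and had 774 and 861 at 3 µM, above 0.3 µM by 1.07.

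Some genes that fell at 0.3 µM were above vehicle at 3 µM. CUX1 had 1111 and 854 at 1 µM and 1841 and 1862 at 3 µM, where the arrays lay above vehicle (2.13 for 3 µM minus 0.3 µM, limma adjusted p = 2.79e-12). HDAC4 had 233 and 244 at 3 µM (2.35) and AGAP1 474 and 483 (1.68), again above vehicle in all arrays. PRKCA and DPYD were below vehicle at every dose, with 469 and 410.1 and 106 and 94.7 at 3 µM. EMP1 fell further, to 293 and 251 (-1.91). HDAC4 spans 353 kb, so that CUX1, HDAC4 and AGAP1, like PRKCA and DPYD, are long genes.

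The genes with the largest differences between the doses mostly did not pass against vehicle at 0.3 µM. TAC1, the precursor of substance P, had 2157 and 2129 at 3 µM, against 9.01 and 9.50 at 0.3 µM (5.72, or 7.71 with the smaller and 4.05 with the larger pseudocount, at 0.3 µM signals near the floor). UPP1 had 5748 and 6057 at 3 µM, against 363 and 383 at 0.3 µM (3.87), and DDIT3 6940.0 and 6646, against 232 and 357 (4.41). TRIB3 (3.87) and LAMP3, a lysosomal membrane protein (3.97), followed. Lower at 3 µM than at 0.3 µM were the hormone STC1 (-3.29), the fatty acid desaturase SCD (-2.76), the carboxypeptidase CPM (-2.60), the Wnt inhibitor DKK1 (-2.54) and the mitotic regulator CDCA3 (-2.41). Against vehicle at 0.3 µM, 8 of these 10 genes did not pass, among them TAC1 (0.18, -0.25 to 0.62) and STC1 (-0.25, -0.49 to -0.02). A pair of stress genes changed direction with dose: DDIT4 had 2349.6 and 2352 at 3 µM (1.89 against 0.3 µM) and NIBAN1 4072 and 4059 (2.55), both above vehicle there and below it at 0.3 µM.

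**Figure D4:**
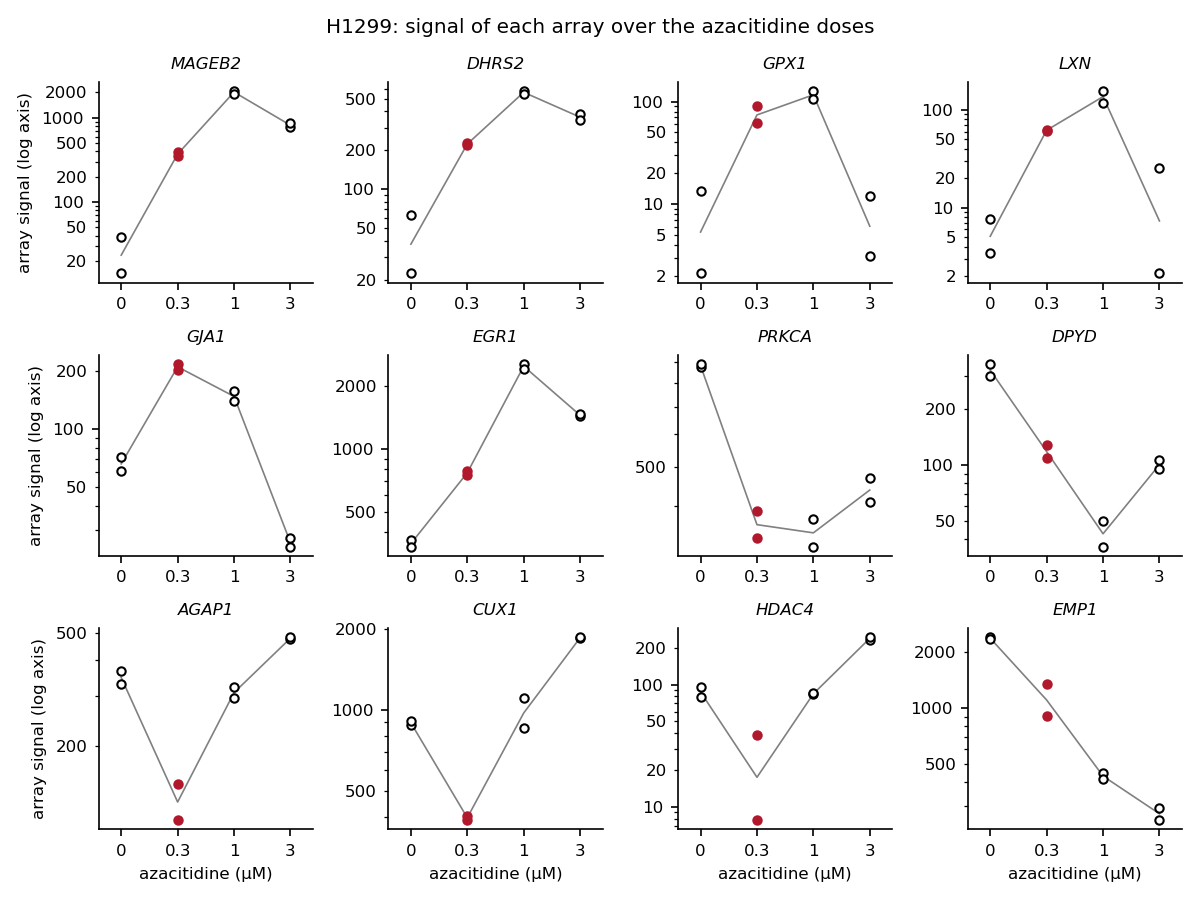
Signal of each H1299 array (y, log axis) with vehicle (0) and with azacitidine at 0.3, 1 and 3 µM (x) for 12 genes, 2 arrays a dose, the 0.3 µM arrays filled and the grey line through the geometric means. GPX1, LXN and GJA1 are above vehicle at 0.3 and 1 µM, and at 3 µM overlap vehicle or, for GJA1, lie below it, CUX1, HDAC4 and AGAP1 are lowest at 0.3 µM, and EMP1 falls at each step.

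The largest differences between azacitidine and decitabine at the same dose of 0.3 µM were in genes that were lower with azacitidine, MAGEB2, GPX1 and germline genes among them. The direct comparison of the azacitidine and decitabine arrays, which uses no vehicle array, called 513 genes (6.39%), of which 190 were higher with azacitidine (2.37%) and 323 lower (4.03%). DAZL had 17.7 and 12.1 with azacitidine, against 1344 and 1514 with decitabine (-4.96, limma adjusted p = 8.19e-15). GPX1 had 89.8 and 61.2 with azacitidine, against 1247 and 1104 with decitabine (-3.50). SSX1 and SSX3, X-linked cancer-testis genes, had 26.5 and 43.2 and 38.5 and 5.49 with azacitidine, against 506 and 564 and 448 and 487 with decitabine (-3.09 and -3.28). MAGEB2 had 388 and 355 with azacitidine, against 2707 and 2787 with decitabine (-2.79). In all 5 genes every decitabine array lay above every azacitidine array, which was a condition of the choice of the largest differences. For DAZL and both SSX genes the azacitidine arrays were near the floor, so that the size of their differences rests on the pseudocount. Of the 19 cancer-testis and germline genes, 7 were lower with azacitidine than with decitabine and 0 higher. These 19, of 36 members with a singly named probe set, were above the array median on at least 2 arrays of any groups. DAZL and both SSX genes were below it with 0.3 µM azacitidine and with vehicle, so they entered through other groups. Such genes had little room to be higher with azacitidine, so the filter is part of this one-sided count.

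Of the 14 genes with the largest rises under azacitidine, 8 were lower with azacitidine than with decitabine and 0 higher, SPARC (-1.97), LXN (-1.53) and GJA1 (-1.20) among them. SCARF1 did not differ past the test (0.23, -0.26 to 0.72). Of the 14 genes with the largest falls 1 passed between the drugs, FGF1, with 22.9 and 17.5 for azacitidine and 43.4 and 92.7 for decitabine (-0.90). For PRKCA the difference was 0.31 (0.12 to 0.51), for AGAP1 -0.02 (-0.27 to 0.22) and for DPYD 0.06 (-0.33 to 0.45), all on the log2 scale. Genes higher with azacitidine than with decitabine were NVL, a ribosome assembly ATPase, with 125 and 95.5, against 10.7 and 17.3 (1.62), and BRCC3, a deubiquitinase, with 1117 and 1028, against 270.3 and 629.7 (1.30). The vehicle arrays of these 2 genes, at 83.9 and 84.4 and 1369 and 1296, lay closer to azacitidine than to decitabine. The ephrin EFNA1 (0.89), the integrin ITGA4 (0.86) and the chromatin regulator HCFC1 (0.82) were also higher with azacitidine.

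**Figure D5:**
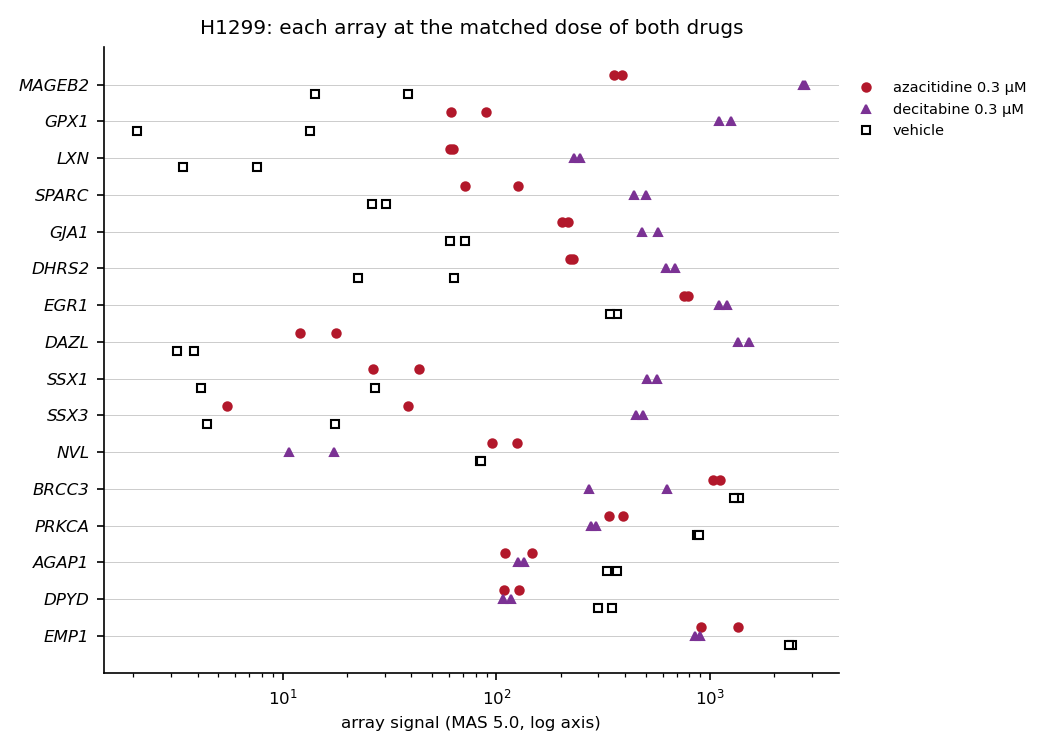
Signal of each H1299 array (x, log axis) with azacitidine 0.3 µM (red circles), decitabine 0.3 µM (purple triangles) and vehicle (open squares) for 16 genes, 2 arrays each. For MAGEB2, GPX1, LXN, SPARC and GJA1 azacitidine lies between vehicle and decitabine, for DAZL it lies near vehicle, and for PRKCA, AGAP1 and DPYD both drugs lie together below vehicle.

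Few responses differed between H1299 and A549 by a test of the difference itself. The interaction, the H1299 response to 0.3 µM azacitidine minus that of A549, called 69 genes (0.86%), 39 higher (0.486%) and 30 lower (0.374%) in H1299. MAGEB2 had 64.1 and 58.6 with azacitidine in A549, against 64.0 and 27.98 with vehicle, and the interaction was 2.52 (limma adjusted p = 7.43e-06). DHRS2 had 79.1 and 60.8 with azacitidine in A549, against 88.7 and 77.7 with vehicle (2.01). The A549 groups of MAGEB2 and of DHRS2 overlapped, at low signals. GPX1, LXN and GJA1 were high in A549 with or without drug: GPX1 had 2519.8 and 2428 with azacitidine, against 2085 and 2339 with vehicle in A549, LXN 1466 and 1573, against 1145 and 1214, and GJA1 4408 and 4234, against 4652 and 4215. Of the 14 largest rises in H1299 10 had a higher response in H1299 by the interaction, and of the 14 largest falls 4 a lower one, AGAP1, PRKCA, CUX1 and NT5C2. These genes were picked by their H1299 difference, which is itself part of the interaction. The choice therefore favours such counts, and they are no separate evidence that the lines differ.

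The call of the interaction depended on the arrays that entered the fit. It gave 19 genes from the 4 groups of 2 arrays alone, and between 26 and 50 genes with 1 of their 8 arrays left out. In the other direction IFITM3, an interferon-induced antiviral membrane protein, had 1882 and 2024 with azacitidine in H1299, against 2181 and 2404 with vehicle, and 201 and 173 with azacitidine in A549, against 31.4 and 43.6 with vehicle (-1.89). KLF4 had 566 and 770.4 with azacitidine in H1299, against 1148 and 1194 with vehicle, and 659.6 and 774, against 372 and 349 in A549 (-1.72). For KLF4 the groups were apart in opposite directions in the lines. DPYD, the longest of the named genes that fell, also fell in A549, with 111 and 109 with azacitidine, against 278 and 215 with vehicle (-0.96, limma adjusted p = 0.00738), and its interaction did not pass (-0.28, -0.83 to 0.28).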

How the data were processed

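Total RNA of 28 samples, 14 groups of 2, was measured on one-colour oligonucleotide arrays, 1 array a sample. The values deposited by the authors are linear intensity, the signal of each of 22277 probe sets made with MAS5, per the submitters' processing notes, which give no version. Their 2% trimmed means, 500.125 to 500.159, show 1 scaling target. GEO's platform annotation named 1 gene for 19064 probe sets, several for 1043 and none for 2108, with 62 controls left out, and Entrez lookup changed 0 symbols. Probe sets above the array median on at least 2 arrays were kept (11800), and the brightest stood for its gene (8024 genes, 2600 with several). Of the 455 called genes 167 had several, 0 with a call the other way.

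The fit was limma 3.58.1 in R 4.3.3 (data.table version 1.17.8) on log2(intensity + 32), with 1 mean per group over all arrays (14 residual degrees of freedom), an eBayes trend, two-sided p-values, Benjamini-Hochberg adjustment over all genes at 0.05 and 95% intervals, tested on simulated data. The number of arrays limits the precision. Named were the 14 largest rises and falls past the test with arrays that did not overlap, the 3 largest called members of each of 29 lists a direction, 17 fixed genes (16 tested), and the 5 largest genes a direction of the other 3 comparisons. Except for the interaction, those 5 also had to have arrays that did not overlap. Of 99 such genes 1, and the counts of 1 of the lists, are not reported here, and members of short counts were added after their values were seen. The members and lists were chosen with earlier results of these data known. Alternatives were quantile normalization, median centring, a pseudocount of 1 or 128, a looser filter (none) or a stricter one (75th percentile), each kept probe set by itself, H1299 arrays alone, the groups compared alone, eBayes without trend, a replicate block and leaving out each array. Spans and promoters came from RefSeq (GRCh38.p14). Of the tested genes 8022 had a span. Where a gene had several promoter entries the first was used.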

Additional observations from a re-analysis of the deposited data

Results flagged for a closer look

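The response to 0.3 µM azacitidine differed between the lines for 69 genes by the interaction term of the limma fit, of which 25 were named here. Values are the interaction on the log2 scale, the response of H1299 minus that of A549, each at an adjusted p under 0.05.

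Responses were higher in H1299 for the cancer-testis gene MAGEB2 (2.52), DHRS2 (2.01), ZNF280B (1.77), SCARF1 (1.74), NES (1.56), SERPINH1 (1.55), GJA1 (1.34), EGR1 (1.28), GPX1 (1.27), CCN2 (1.07), LXN (0.97), the chaperone HSPB1 (0.83), TFPI2 (0.67) and the keratin KRT8 (0.66). CCN2 rose in H1299 (0.44) and fell in A549 (-0.64), and it was the single gene of these to pass in both lines.

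Responses were lower in H1299 for GINS1 (-0.53), AGAP1 (-0.81), PRKCA (-0.89), CUX1 (-0.92), DDIT4 (-0.94), NIBAN1 (-1.09), the nucleosome assembly gene NAP1L2 (-1.09), the G protein subunit GNB3 (-1.18), NT5C2 (-1.33), KLF4 (-1.72) and IFITM3 (-1.89). KLF4, NIBAN1 and DDIT4 fell in H1299 (-0.80, -0.59 and -0.61) and rose in A549 (0.93, 0.50 and 0.33). IFITM3 passed in A549 (1.66) and not in H1299 (-0.23). With a pseudocount of 1 and with one 4 times as large as 32, 17 of these 25 interactions passed in both fits. The others were SCARF1, GPX1, LXN, NES, ZNF280B, SERPINH1, NAP1L2 and GNB3, with adjusted p of 0.221 for GPX1 and 0.688 for LXN at the larger. Both lines were measured with 2 arrays a group, and line and any difference in handling between the lines cannot be told apart.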

How the results depend on the processing

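The 455 genes called for azacitidine 0.3 µM against vehicle in H1299 became between 149 and 207 when 1 of the 4 arrays was left out, where the lone array of a group is assumed to vary like the other groups. The 8 arrays of the 4 groups alone, an alternative chosen after seeing the data, gave 193. Of the other 10 alternatives, 9 gave 368 to 480 genes, of which the filters tested more or fewer genes, and the test of each kept probe set gave 517 probe sets of 470 genes. The 513 genes of azacitidine against decitabine became 260 to 410 with 1 array left out. The 69 genes of the interaction became 19 with the 4 groups alone and 26 to 50 with 1 array left out. The cause was not tested, beyond the fewer arrays in each of these fits. Of 72 named genes that passed, 27 passed in every alternative that measured them (14 or 15 a gene), 45 lost the call in at least 1 and 0 changed direction. Among genes that did not pass, DAZL passed with a pseudocount of 1 (1.80) and 4 changed sign. RRM1 had a difference of 0.00844 with median centring and of -0.17 to 0.10 with 1 array left out. DDIT3 had -0.14 to 0.42, CDA -0.24 to 0.0558 and ATF3 -0.24 to 0.0166 with 1 array left out, and the cause was not tested. Replicate numbers did not pair the samples: the correlation of replicate deviations was 0.116 for azacitidine and vehicle and -0.078 to 0.156 over 21 pairs of H1299 groups. A replicate block gave 480 genes for azacitidine against vehicle, 571 against decitabine, 4517 for 3 µM against 0.3 µM and 73 for the interaction. Signals near the floor limit the genes that rose from low levels.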
